A study of Mus musculus with 4 samples.

Results

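The cytosolic ribosomal protein genes encode the proteins of the cytoplasmic ribosome. They were taken as the protein-coding genes of the mm10 RefSeq annotation with a symbol of the Rpl or Rps form, together with Rplp0, Rplp1, Rplp2 and Rpsa, which gave 84 of 21887 protein-coding genes. Of these, 52 are Rpl genes, which encode proteins of the large ribosomal subunit, and 32 are Rps genes, which encode proteins of the small subunit. FOXL2 binding came from ChIP-seq with a Novus FOXL2 antibody on fetal ovaries of the CD1 strain, collected at E14.5 and freed of the mesonephros. The series held 2 FOXL2 ChIP samples, each from a pool of 80 to 100 ovaries, and 2 input samples of chromatin without the antibody step. Whole ovaries mix germ cells and several somatic cell types, so the cells that carried a peak cannot be named. The analysed values were the positions of 11438 peaks, each 300 bp wide, in a single list for both ChIP samples, of which 11435 lay on the placed chromosomes.

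FOXL2 is a forkhead transcription factor of pregranulosa and granulosa cells, the somatic cells that support the oocytes. Ribosomal protein genes are among the most highly transcribed genes of growing cells. Most are short, start in a CpG-rich promoter, and give mRNAs that begin with a terminal oligopyrimidine tract (TOP), a run of pyrimidines through which mTOR and LARP1 control their translation. Many carry small nucleolar RNA (snoRNA) genes in their introns and have processed pseudogenes scattered through the genome.

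The list gives no height, score or value per ChIP sample. The read depth is therefore unknown, no test over samples could be made, and every count below is a description without replicate error. Intervals are exact binomial 95% intervals that treat genes as independent draws.

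Most cytosolic ribosomal protein genes had a FOXL2 peak close by. A peak centre lay in the gene or within 10 kb of either end for 72 of the 84 genes, or 85.7% (95% interval 76.4 to 92.4%), against 49.6% of all protein-coding genes. The ribosomal protein genes are short, with a median length of 3.18 kb and a range of 0.592 to 11.8 kb, against a median of 17.2 kb for all protein-coding genes. Among the 8615 protein-coding genes inside that length range, 33.6% had a peak by the same criterion. Peaks were then counted for a gene only when they lay within 1 kb of one of its own borders, meaning either end of the annotated gene, with no other protein-coding border nearer. Such own-border peaks were present at 60 of the 84 genes (71.4%, 95% interval 60.5 to 80.8%), against 31.3% of all protein-coding genes and 19% of those in the same length range. A centre inside the gene body was also found for 60 genes (71.4%), against 36.2% of all protein-coding genes. No ribosomal protein gene had own-border peaks at both ends.

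**Figure D1:**
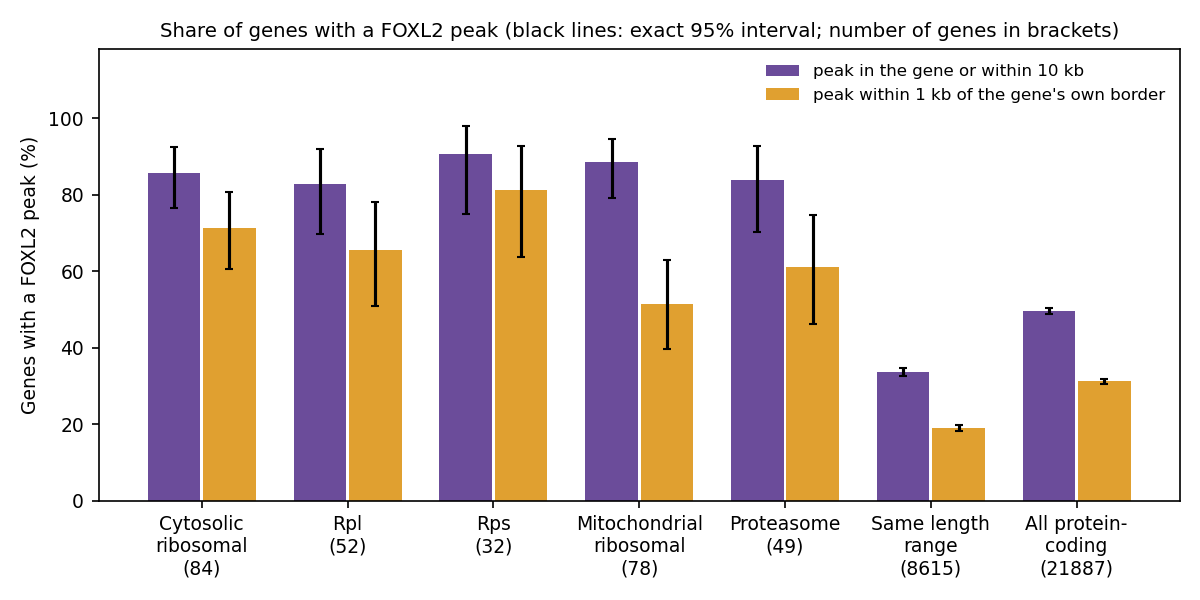
Share of genes (%) with a FOXL2 peak in the gene or within 10 kb (purple) and within 1 kb of the gene's own border (yellow), for the cytosolic ribosomal protein genes, their Rpl and Rps subsets, related sets and all protein-coding genes, with exact 95% intervals as lines. The 84 cytosolic ribosomal protein genes stand at 85.7% and 71.4%, against 49.6% and 31.3% of all protein-coding genes.

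Other gene sets of basic cell machinery were counted in the same way. Mitochondrial ribosomal protein genes had a peak in the window in 69 of 78 cases (88.5%) and an own-border peak in 40 (51.3%, 95% interval 39.7 to 62.8%). Proteasome genes had a peak in the window in 41 of 49 cases (83.7%) and an own-border peak in 30 (61.2%, 95% interval 46.2 to 74.8%). For own-border peaks the cytosolic minus mitochondrial difference was 20.1 percentage points (95% interval 5.15 to 34). The cytosolic minus proteasome difference was 10.2 points (-5.96 to 26.6). For a peak in the window the difference from the mitochondrial set was -2.75 points (-13.3 to 7.99). From the proteasome set it was 2.04 points (-9.91 to 16.1). Apart from that of the 20.1 point difference, these intervals include 0. They treat genes as independent draws, so a difference in binding between the sets was not tested. A peak centre inside the gene was found for 71.4% of the cytosolic and 61.5% of the mitochondrial genes.

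Rpl and Rps genes were set side by side. A peak in the window was found for 43 of 52 Rpl genes (82.7%, 95% interval 69.7 to 91.8%) and 29 of 32 Rps genes (90.6%, 75 to 98%). The difference, Rpl minus Rps, was -7.93 percentage points with a 95% interval of -21.8 to 8.89. Own-border peaks were present at 34 Rpl genes (65.4%) and 26 Rps genes (81.2%), a difference of -15.9 points (-32.6 to 4.28). A peak with all protein-coding borders over 1 kb away was in the window of 9 Rpl genes (17.3%) and 6 Rps genes (18.8%), a difference of -1.44 points (-19.8 to 14.4). All 3 intervals include 0, and they also leave room for differences of more than 10 points.

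The own-border peaks sat just inside the gene. Of 60 such peaks 53 (88.3%) were centred within the gene and 7 beyond it, against 81.6% inside for all protein-coding genes. The median centre lay 158.5 bp inside the border (95% interval of the median 115 to 202 bp), against 189 bp for all protein-coding genes and 163 bp for other genes in the same length range. Centres from 50 to 350 bp inside the border, a range chosen after the positions were seen, made up 80% of the ribosomal protein peaks. The share was 50.1% for all protein-coding genes and 52.5% for other genes of the same length range. Of the own-border peaks of mitochondrial ribosomal protein genes, 87.8% were centred inside, with a median of 154 bp and 65.9% in that range. For proteasome genes the values were 80.6%, 122 bp and 61.3%. The medians of the families were close, at 159.5 bp for 34 Rpl peaks and 156 bp for 26 Rps peaks, a difference of 3.5 bp with an approximate 95% interval of -68.6 to 94.9 bp. The middle quartiles ran from 90.3 to 288.8 bp for Rpl peaks and from 109.5 to 202.8 bp for Rps peaks.

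**Figure D2:**
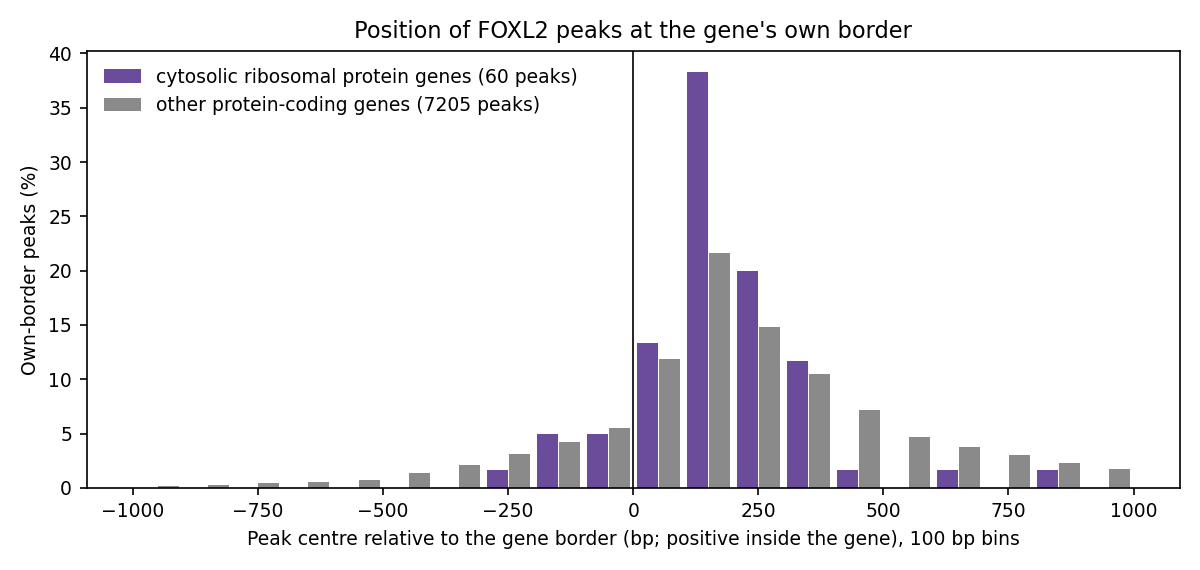
Distance of the peak centre from the gene's own border (bp, positive inside the gene) in 100 bp bins, as a percentage of the 60 own-border peaks of cytosolic ribosomal protein genes (purple) and of the 7205 of other protein-coding genes (grey). The fullest bin of the ribosomal protein genes, 100 to 200 bp inside, holds 23 of their 60 peaks.

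The occupied end was the start of the gene wherever the strand was known. RefSeq start sites, which give the strand, were at hand for 64 of the 84 genes, 40 Rpl and 24 Rps. Of the own-border peaks 46 belonged to such genes, and 46 of 46 lay at the start border and 0 at the end border, against 98.3% at the start for all protein-coding genes with a strand. Within 500 bp of a listed start lay a peak in 52 of 64 ribosomal protein genes (81.2%), made up of 30 of 40 Rpl genes (75%) and 22 of 24 Rps genes (91.7%), against 35.2% of all protein-coding genes with a listed start. A listed start lay within the 300 bp of the peak for 19 of the 46 (41.3%), against 39.3% for all protein-coding genes.

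**Figure D3:**
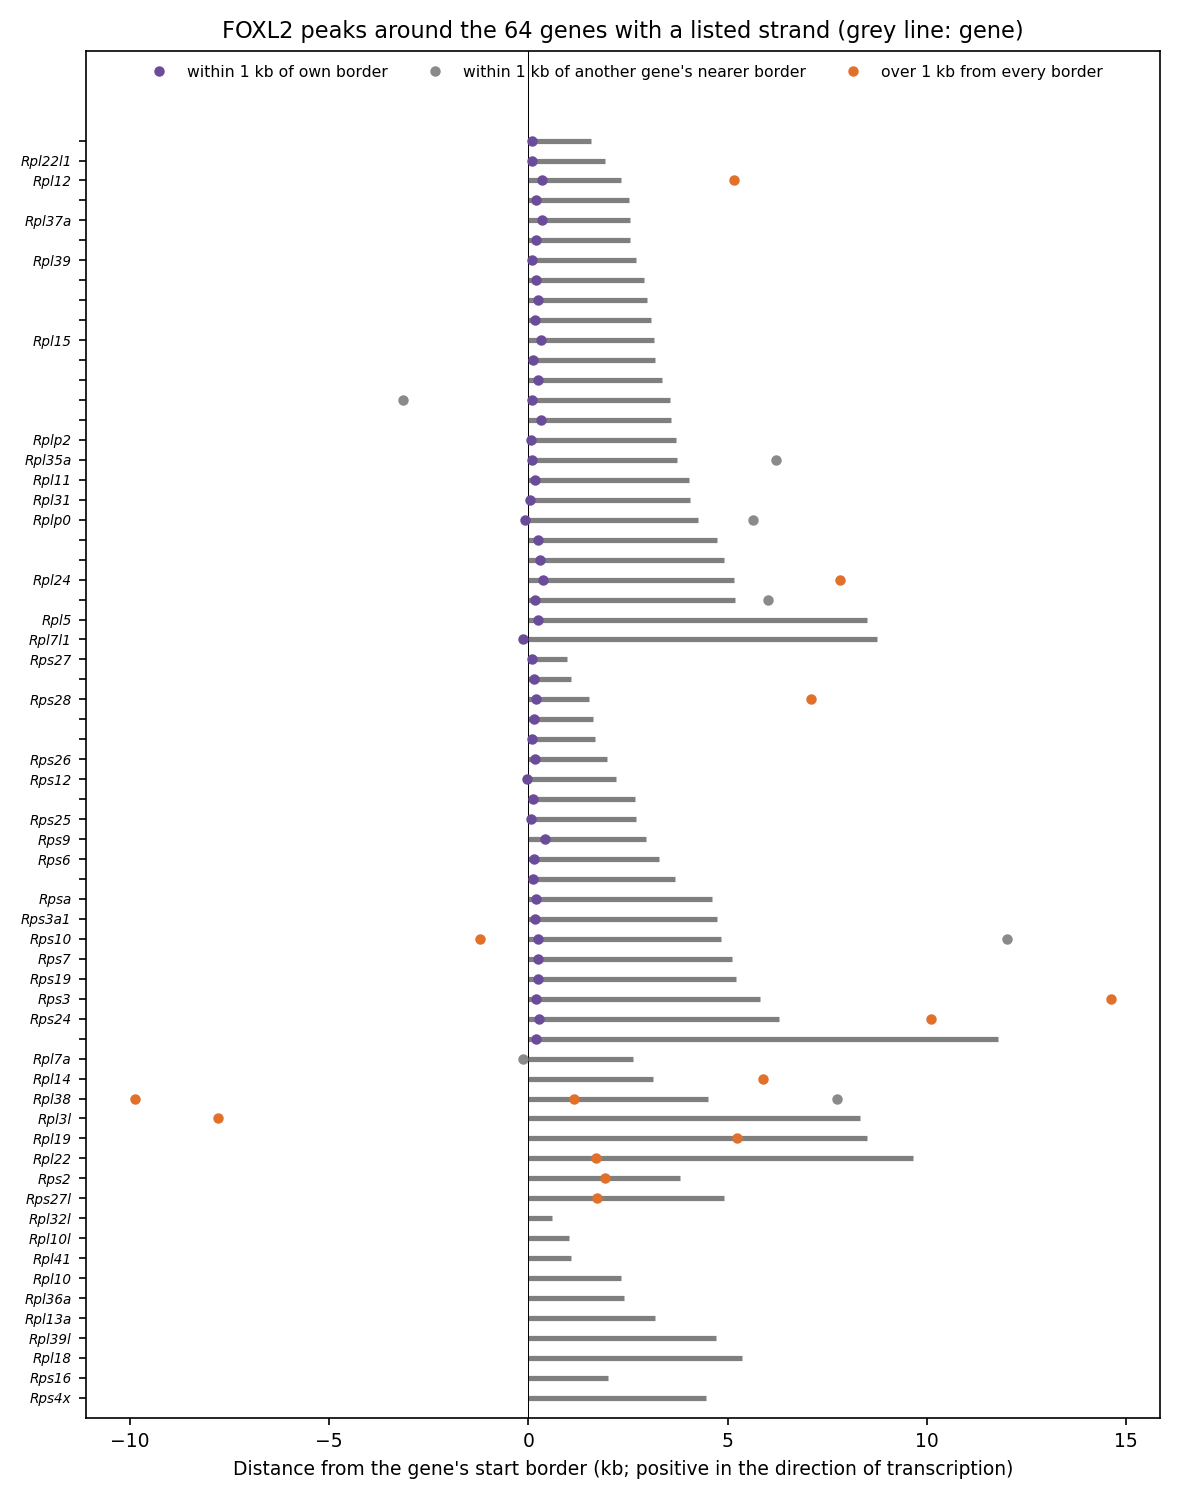
Positions of FOXL2 peak centres (points, kb from the start border, positive in the direction of transcription) around the 64 cytosolic ribosomal protein genes with a listed strand, whose length is drawn to scale as a grey line, coloured by the nearest protein-coding border. The own-border peaks, 46 in all, line up at the start; the 10 genes at the bottom had no peak in the window. Genes described in the text are labelled.

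Promoter windows from RefSeq (assembly GRCm38.p6 of the C57BL/6J strain, which mm10 denotes) run from 250 bases before to 50 bases after a listed start. The sequences of 4 genes with an own-border peak that reaches into the window are shown to give the bases under the peak, followed by Rps2, whose peak lies at an inner start, and by Rpl13a and Rps4x, which had no peak. Bases inside a FOXL2 peak are in capitals, and the listed start follows the leading 250 bases of each run. They are Rplp0 (chr5:115559217-115559516, plus strand), Rpl31 (chr1:39367601-39367900, plus strand), Rps25 (chr9:44407464-44407763, plus strand), Rps27 (chr3:90213599-90213898, minus strand), Rps2 (chr17:24719813-24720112, plus strand), Rpl13a (chr7:45128696-45128995, minus strand) and Rps4x (chrX:102189342-102189641, minus strand).
Rplp0: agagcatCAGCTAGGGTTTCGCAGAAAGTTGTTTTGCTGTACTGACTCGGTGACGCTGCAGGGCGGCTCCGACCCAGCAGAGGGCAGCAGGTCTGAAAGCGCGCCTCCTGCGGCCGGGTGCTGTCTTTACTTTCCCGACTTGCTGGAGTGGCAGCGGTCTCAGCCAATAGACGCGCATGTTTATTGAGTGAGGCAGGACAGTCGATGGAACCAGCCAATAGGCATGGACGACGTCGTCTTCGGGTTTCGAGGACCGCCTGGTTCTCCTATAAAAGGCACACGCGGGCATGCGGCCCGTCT
Rpl31: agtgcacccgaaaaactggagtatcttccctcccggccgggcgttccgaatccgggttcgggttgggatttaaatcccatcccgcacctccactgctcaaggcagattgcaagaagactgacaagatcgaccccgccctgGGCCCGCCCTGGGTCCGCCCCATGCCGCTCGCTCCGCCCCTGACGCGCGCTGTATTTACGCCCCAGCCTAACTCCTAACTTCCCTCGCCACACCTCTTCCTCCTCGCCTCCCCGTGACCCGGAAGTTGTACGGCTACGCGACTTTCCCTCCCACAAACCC
Rps25: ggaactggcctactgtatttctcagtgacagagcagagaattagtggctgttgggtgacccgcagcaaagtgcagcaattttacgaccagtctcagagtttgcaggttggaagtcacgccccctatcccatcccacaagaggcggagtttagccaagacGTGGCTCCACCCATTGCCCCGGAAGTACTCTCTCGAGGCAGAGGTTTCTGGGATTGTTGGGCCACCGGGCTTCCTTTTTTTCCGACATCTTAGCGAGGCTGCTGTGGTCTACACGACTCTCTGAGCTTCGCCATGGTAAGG
Rps27: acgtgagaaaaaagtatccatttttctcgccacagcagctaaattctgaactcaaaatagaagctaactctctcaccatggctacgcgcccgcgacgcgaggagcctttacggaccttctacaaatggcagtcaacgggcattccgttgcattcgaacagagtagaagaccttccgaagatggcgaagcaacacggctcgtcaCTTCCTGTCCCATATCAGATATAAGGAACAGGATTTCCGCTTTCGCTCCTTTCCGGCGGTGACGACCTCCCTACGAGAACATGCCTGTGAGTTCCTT
Rps2: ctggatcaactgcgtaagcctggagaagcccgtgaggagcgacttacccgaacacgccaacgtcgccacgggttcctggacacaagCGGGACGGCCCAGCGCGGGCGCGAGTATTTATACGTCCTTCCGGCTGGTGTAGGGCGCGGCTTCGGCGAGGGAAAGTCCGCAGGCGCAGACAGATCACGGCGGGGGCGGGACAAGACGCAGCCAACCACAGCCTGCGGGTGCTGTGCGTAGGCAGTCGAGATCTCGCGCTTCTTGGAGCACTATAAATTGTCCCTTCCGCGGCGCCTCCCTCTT
Rpl13a: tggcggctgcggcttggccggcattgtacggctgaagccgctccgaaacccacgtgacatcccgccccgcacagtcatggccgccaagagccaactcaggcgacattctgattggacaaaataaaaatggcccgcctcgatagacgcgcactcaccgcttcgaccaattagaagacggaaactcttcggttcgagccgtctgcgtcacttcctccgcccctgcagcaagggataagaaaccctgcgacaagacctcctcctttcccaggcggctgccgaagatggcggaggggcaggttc
Rps4x: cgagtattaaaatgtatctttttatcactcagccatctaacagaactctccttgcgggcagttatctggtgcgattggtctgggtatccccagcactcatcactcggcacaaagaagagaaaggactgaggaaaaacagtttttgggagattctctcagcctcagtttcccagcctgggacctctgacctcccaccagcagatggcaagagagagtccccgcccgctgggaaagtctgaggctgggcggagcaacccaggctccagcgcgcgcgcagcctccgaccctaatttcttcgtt
In Rplp0 the peak covers 293 of the 300 bases, in Rps2 214, in Rpl31 160, in Rps25 141 and in Rps27 97.

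Short motifs were searched on both strands of these windows, with 1 window per gene. The forkhead letters TGTTTAC were present in 1 of 64 ribosomal protein promoters (1.56%), that of Rpl41, which had no peak, against 2.93% of all 17492 protein-coding promoters. None of the 46 promoters with an own-border peak held them. Only the exact letters TGTTTAC were searched, so these counts do not show whether a promoter holds a related forkhead spelling. In the sequences above, TGTTTAT stands under the peak in Rplp0 and TATTTAC under that in Rpl31, each with 1 base changed. How often such spellings occur was not counted, in ribosomal protein promoters or in all promoters. The NR5A1 letters CAAGGTC were found in 1 promoter (1.56% against 3.64%) and the GATA letters AGATAA in 4 (6.25% against 9.94%). The ETS letters CCGGAA stood in 32 of the 64 promoters (50% against 19.1%), YY1 letters AAGATGG in 10 (15.6% against 6.35%), SP/KLF letters GGGCGG in 38 (59.4% against 46.3%) and the TATA letters TATAAA in 8 (12.5% against 13.3%). A TOP start, here a C at the listed start followed by 4 pyrimidines, was present in 13 promoters (20.3% against 2.17%), and in 50 (78.1% against 49.9%) when the start could move by up to 20 bases. The ETS share was 23 of 46 (50%) with an own-border peak and 9 of 18 (50%) without, and SP/KLF letters were in 25 (54.3%) and 13 (72.2%). Among all protein-coding promoters, ETS letters were in 30.1% with an own-border peak and 14% without, and SP/KLF letters in 71.3% and 34.8%. The SP/KLF share, above that of all promoters in the full set, was thus below it among promoters with an own-border peak, at 54.3% against 71.3%. Peaks touched the window in 28 of the 46 genes and then covered a median of 87 of its 300 bases. Most peak bases lay downstream of it and were not searched.

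**Figure D4:**
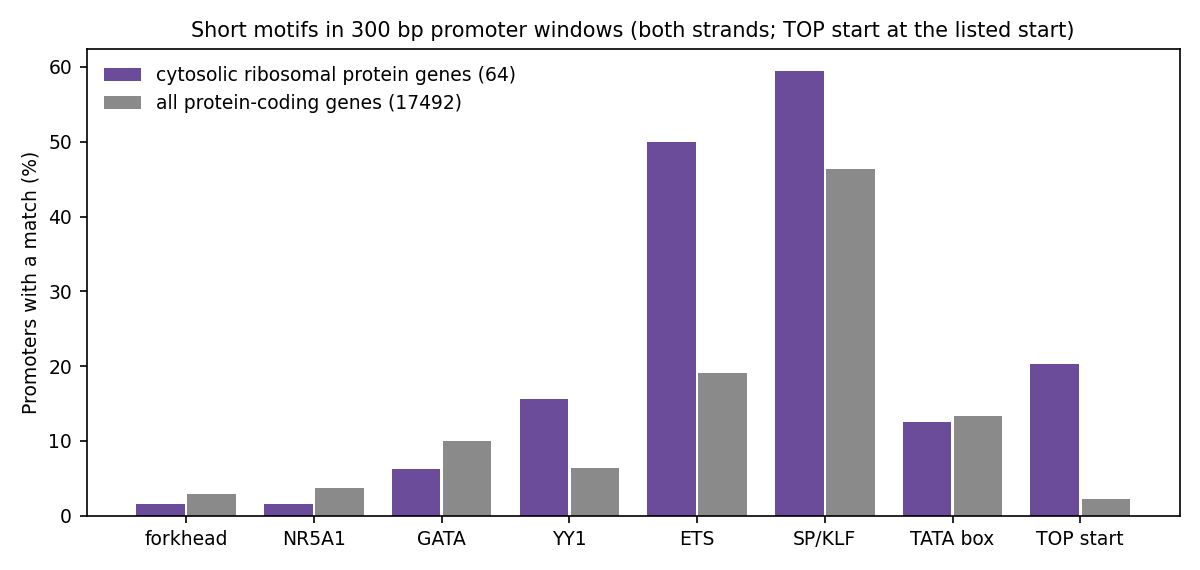
Share of promoter windows (%) that hold each short motif, for 64 cytosolic ribosomal protein genes (purple) and 17492 protein-coding genes (grey). ETS letters reach 50% against 19.1%. The letters TGTTTAC, the only forkhead spelling searched, reach 1.56% against 2.93%.

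In the sequences above, the ETS letters begin at base 9 after the start in Rpl31, at -73 in Rps25 and at 4 in Rps27, each under the capitals. In Rps2 they begin at -126, also under the peak. Rpl31 holds SP/KLF letters at -118, -107, -96 and -77. Rplp0 has TATA letters at 18, downstream of its listed start.

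Proteins of the stalk, the flexible arm of the large subunit that recruits translation factors, were considered next. Rplp0, the stalk's anchor, had a peak at chr5:115559224-115559523, centred 94 bp outside the gene, and a further peak in its window lay 3 bp from the border of Gcn1. Rplp2 had a peak 56 bp inside. Rpl12, at the base of the stalk, had a peak 347 bp inside and another 2828 bp beyond the end of the gene. Rplp1, by contrast, had no peak in the window, and the nearest lay 31846 bp away. Rpl5 and Rpl11, which join 5S ribosomal RNA in a particle that can restrain MDM2 and so stabilise p53, had a single peak each, 238 and 160 bp inside. Mdm2 itself had a peak 231 bp inside.

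Genes mutated in Diamond-Blackfan anaemia, a failure of red cell production in humans, are spread over both subunits. Of 19 such genes 18 had an own-border peak (94.7%, 95% interval 74 to 99.9%), all inside the gene. The share was 71.4% for the 84 ribosomal protein genes and 31.3% for all protein-coding genes. Rps19, the most often mutated of them, had its peak 245 bp inside, Rps26 170 bp, Rps7 236 bp and Rpl35a 88 bp. The centres of the 18 ranged from 39 bp inside Rpl31 to 330 bp inside Rpl15. Rpl18 was the exception, with its nearest peak 86752 bp away.

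Of 8 genes of early assembled or well studied small subunit proteins, 8 had a peak in the window and 7 an own-border peak (87.5%, 95% interval 47.3 to 99.7%). The shares were 85.7% and 71.4% for the 84 ribosomal protein genes and 49.6% and 31.3% for all protein-coding genes. Rps6, the substrate of the S6 kinases, had its peak 135 bp inside, Rpsa, also known as the laminin receptor, 202 bp inside, and Rps3, at the mRNA entry channel, 192 bp inside. Rps3a1 had a peak 158 bp inside. The peak of Rps14 was centred 201 bp outside.

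At the edges of the distribution, the centres nearest to a border were those of Rps12 (29 bp outside), Rpl3 (33 bp outside), Rpl31 (39 bp inside), Rplp2 (56 bp inside) and Rps25 (58 bp inside). The deepest own-border centres were those of Rpl29 (808 bp), Rpl36 (695 bp), Rps9 (407 bp), Rpl24 (357 bp) and Rpl37a (349 bp). Of the 7 centred outside the gene, 6 were those of Rps14 (201 bp), Rpl30 (156 bp), Rpl7l1 (133 bp), Rplp0 (94 bp), Rpl3 (33 bp) and Rps12 (29 bp). Outside centres thus stayed within 201 bp of the border, and inside centres beyond 407 bp were found at Rpl29 and Rpl36 alone.

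**Figure D5:**
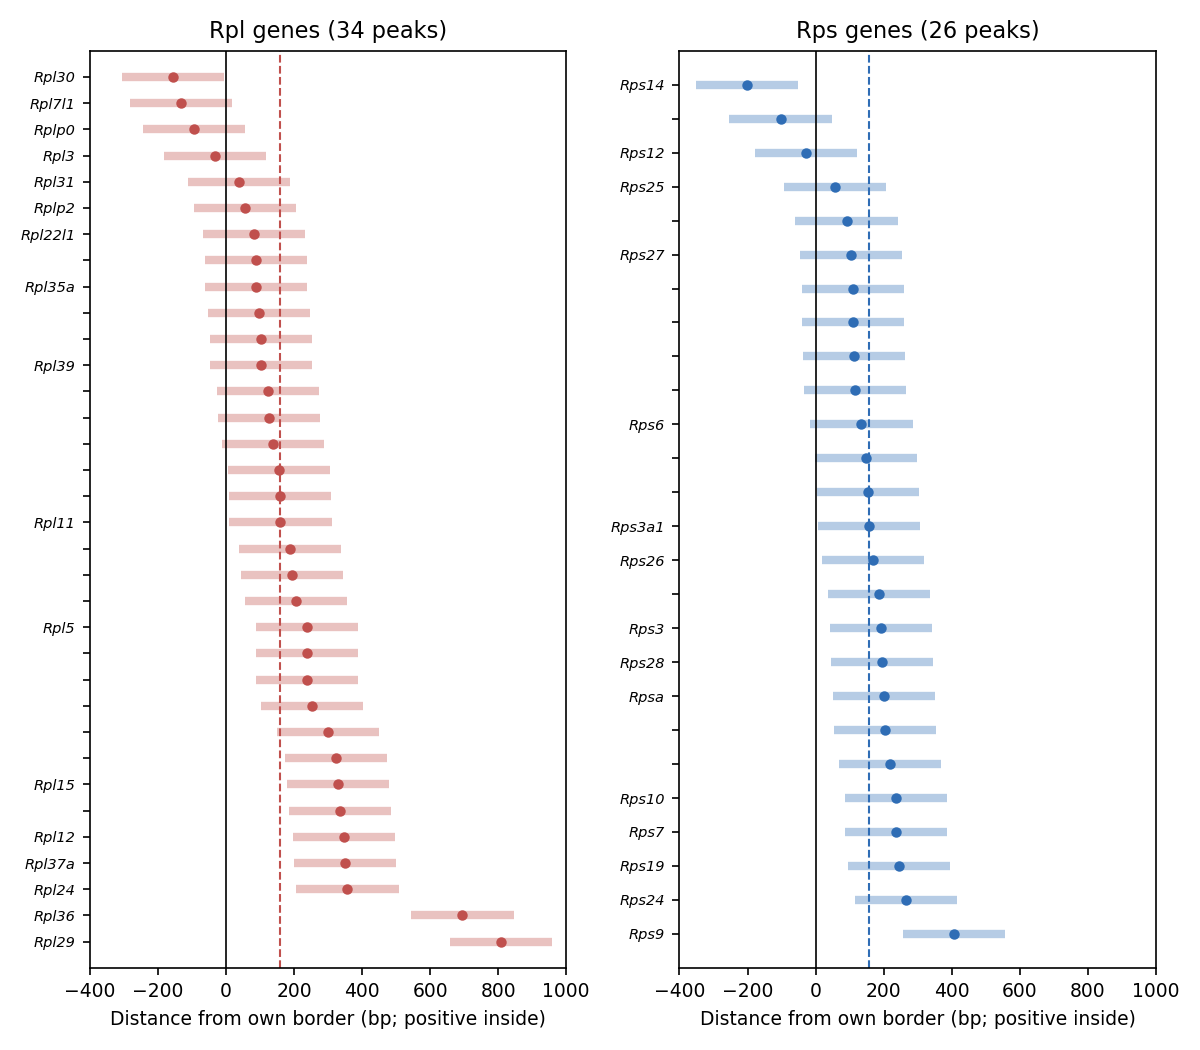
The own-border FOXL2 peak of each gene, with its centre (point) and 300 bp extent (band) in bp from the border (positive inside), for 34 Rpl genes (left) and 26 Rps genes (right). Dashed lines mark the medians, 159.5 bp for Rpl and 156 bp for Rps genes, and the 2 deepest centres are those of Rpl36 and Rpl29; genes described in the text are labelled.

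Peaks away from borders, over 1 kb from all of them, were in the window of 15 genes (17.9%, 95% interval 10.4 to 27.7%), against 13.7% of all protein-coding genes and 6.35% of those in the same length range. The count depended on the definition: with borders of genes of all kinds it was 7 genes (8.33%, against 12.1% of all protein-coding genes), and with a distance of 2 kb it was 8 (9.52%, against 10%). They made 16 pairs of a gene and a peak, 6 with the centre inside the gene and 10 outside. Of the 6 inside, 5 belonged to genes with listed starts, and 5 of 5 were within 500 bp of a listed start that is not the outer border. The Rps2 peak, at chr17:24719899-24720198, lay 1879 bp from the border and 15 bp upstream of a listed start (position -15). That of Rps27l, a paralogue of Rps27 known as a p53 target, lay 1718 bp inside and at position -71 from a listed start. Those of Rpl19, Rpl38 and Rpl22 lay 3260, 1144 and 1695 bp from the border and 309, 382 and 405 bp downstream of a listed start. The peak 1638 bp inside Rpl17 has no listed start to compare. The own-border criterion therefore left out 5 genes whose peak lay near an inner start.

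Outside the genes, Rps10 had a peak 1207 bp from its start border, at chr17:27636302-27636601, besides its peak 236 bp inside and a peak at the border of Nudt3. Rps24 had a peak 3830 bp beyond its end and Rpl24 a peak 2665 bp beyond its end, which is as far from a border of Zbtb11. Rpl14 had its only peak 2756 bp beyond its end. In the windows of Rps3 and Rps28 such peaks lay nearest to Klhl35 and Kank3, at 4927 and 5449 bp. Rpl38, whose loss in mice alters the translation of Hox mRNAs, shared with Rps10 the highest number, 3 peaks in its window. These were 1144 bp inside, 9866 bp outside and at the border of Ttyh2. Among peaks nearest to the ribosomal protein gene's own border, the centres closest to the 1 kb limit were those of Rpl29 at 808 bp, within it, and Rpl38 at 1144 bp, beyond it.

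The genes are short and often lie close to others, and some peaks in their windows lay nearest to a border of a neighbour. Nearness to a border does not settle which gene a peak belongs to. The 84 windows held 90 different peaks in 91 pairs. In 72 pairs the nearest border was the ribosomal protein gene's own, and in 19 it was that of another gene. For 5 genes every peak was nearest to another gene. Rps27a, which encodes a ubiquitin fusion, had a peak centred 104 bp within it but only 14 bp from a border of Clhc1. Rpl7a had a peak 132 bp outside and 89 bp from Med22, and Rpl7 had a peak 1126 bp outside and 323 bp from Rdh10. The peaks of Rpl23a lay nearest to Tlcd1 and Rab34. Rpl3l, the paralogue of Rpl3 used in striated muscle, counted as occupied through the Rps2 peak, 7778 bp away. A border of another protein-coding gene lay within 1 kb of 30 genes, of which 21 (70%) had an own-border peak, against 39 of 54 (72.2%) of the others. The peak counted for Polr3a, an RNA polymerase III subunit gene, was the start peak of Rps24.

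Of the 84 genes 12 had no peak in the window. On chromosome 7 these included Rps16 (nearest peak at 12018 bp), Rpl13a (21103 bp) and Rpl18 (86752 bp). On the X chromosome they were Rpl36a (13548 bp), Rpl10 (15923 bp) and Rps4x (61360 bp). On other chromosomes they were Rpl41, which encodes the shortest ribosomal protein (16332 bp), Rplp1 (31846 bp), Rpl32l (37572 bp), and Rpl39l and Rpl10l, paralogues used in the male germ line (18110 and 153726 bp). Chromosome 7 had a peak at 10 of its 14 ribosomal protein genes, against 39% of all its protein-coding genes, and the X chromosome at 1 of 4, that of Rpl39 104 bp inside, against 29%. On the remaining chromosomes 61 of 66 (92.4%) were occupied, against 49.6% of protein-coding genes on all chromosomes together. This split of the chromosomes was chosen after the data were examined. The genes nearest to the 10 kb limit, by the distance of their closest peak, were Rpl3l at 7778 bp, Rpl14 at 2756 bp and Rpl23a at 2502 bp within it and Rps16 at 12018 bp, Rpl36a at 13548 bp and Rpl10 at 15923 bp beyond it.

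Paralogues of ribosomal protein genes were also counted by themselves. Of the 6 listed paralogues found in the annotation, 4 had a peak in the window (66.7%) and 2 an own-border peak (33.3%, 95% interval 4.33 to 77.7%), against 49.6% and 31.3% of all protein-coding genes. The own-border share lies near that of all genes. Among the 4, Rpl3l counted only through the Rps2 peak, 7778 bp away. Rpl32l, which had no peak in the window, was not on the list of paralogues. Rpl22l1, the paralogue of Rpl22, had a peak 83 bp inside, and Rpl7l1 a peak 133 bp outside. Ribosomal proteins with other symbols were looked up as well. Rack1, a scaffold on the small subunit, had a peak 112 bp inside. Fau, a ubiquitin-like fusion, had its peak 1822 bp away and nearest to Znhit2, and Rpl36al had its peak nearest to Mgat2.

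Pseudogene copies of these genes were also counted, and their shares lay near those of all pseudogenes. Of 318 annotated pseudogenes named after a ribosomal protein gene, 33 (10.4%) had a peak within 10 kb and 0 within 1 kb, against 8.04% and 1.05% of all 10429 pseudogenes. The corresponding counts for the genes themselves were 72 and 68 of 84. Occupied genes had a median of 2 named pseudogenes and unoccupied genes a median of 1. A snoRNA gene lay inside 30 of the 84 genes, of which 26 (86.7%) had a peak in the window, against 46 of 54 (85.2%) of those without.

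Other genes of ribosome production were counted in the same way. Ribosome biogenesis genes had an own-border peak in 22 of 41 cases (53.7%), RNA polymerase I genes in 6 of 13 (46.2%) and RNA polymerase III genes in 15 of 21 (71.4%), against 31.3% of all protein-coding genes. The 95% interval for RNA polymerase I genes, 19.2 to 74.9%, includes that share. Other genes with TOP mRNAs had an own-border peak in 13 of 18 cases (72.2%, 95% interval 46.5 to 90.3%). Among them, the elongation factor genes Eef1b2 and Eef2 had peaks 119 and 185 bp inside, and Pabpc1, the poly(A)-binding protein gene, 2 bp outside. Ncl, the nucleolin gene, had a peak 239 bp inside, and Nop58, of the snoRNA particles, 66 bp inside. Among regulators of ribosome production, Mtor had a peak 106 bp inside, Rps6kb1, an S6 kinase gene, 180 bp inside, and Myc 365 bp outside. Larp1 had 3 peaks, all over 1 kb from every border. Of the RNA polymerase I genes, Taf1a and Taf1c had no peak in the window.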

How the data were processed

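FOXL2 ChIP and input chromatin from CD1 fetal ovaries were the samples, grouped by title. The authors' deposited values are start and end positions in bp of 300 bp peaks on mm10, 1 list for both ChIP samples, with no other value or score. Bowtie 1.2, Picard 1.110, bedtools 2.24.0 and HOMER 4.9 are named in the submitters' processing notes, with roles, peak threshold and use of inputs not given in the sources used here. That threshold sets every count, and depth is unknown.

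Peak centres were compared with RefSeq gene borders (GRCm38.p6) in Python 3.11.15 with pandas 2.3.3 and scipy 1.17.1. A gene was occupied with a centre in its body or within 10 kb. Offsets are to the nearer border, positive inside. Strand and starts came from RefSeq promoter windows. Shares carry Clopper-Pearson intervals, differences of shares Newcombe intervals, and the interval of the difference of medians combines order-statistic intervals. Border look-ups were tested on simulated positions. No sample-level test was possible. The genes, lists and naming rule were chosen with earlier results of these data known; all unoccupied genes, those with most peaks, those with peaks away from borders, and the nearest and farthest own-border peaks are named, except a few genes not reported here. Of 151 listed symbols 145 matched a protein-coding gene.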

Additional observations from a re-analysis of the deposited data

How the results depend on the processing

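The number of ribosomal protein genes with a peak, 72, ranged over the 9 alternatives tried from 60 with the gene body alone to 81 with a 50 kb window. A narrower window can only lower this count and a wider one can only raise it. The share of all protein-coding genes with a 50 kb window is not given here. Own-border counts ranged from 49 of 66 without chromosomes X and 7, a setting chosen after the data were examined, to 67 with borders of 5 kb. A larger border distance can only raise this count. The matching shares of all protein-coding genes are not given here, so these counts say nothing about a difference from other genes. The number of genes with a peak over 1 kb from every border, 15, depended on the definition: it was 8 with a distance of 2 kb, 2 with 5 kb and 7 with borders of genes of all kinds. For the 5 kb distance the share of all protein-coding genes is not given. The difference between Rpl and Rps genes stayed inside its interval under every alternative tried. The intervals are wide and the alternatives reuse the same genes and peaks, so this says little about how stable the difference is. For a peak in the window the difference ran from -15.9 to -0.721 points. For own-border peaks it ran from -19.7 points with borders of 500 bp to -3.37 with borders of genes of all kinds. With borders of all kinds, 34 of 52 Rpl genes and 22 of 32 Rps genes had an own-border peak. The median offset ranged from 157.5 to 165 bp. A stricter peak score was not run, because the list has none. Leaving out a replicate was not run, since the peaks are given once for both ChIP samples. No paired analysis was possible because the list carries no value per sample. Binding weaker than the authors' threshold would go unlisted.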
